A study of Arabidopsis thaliana with 9 samples.

Results

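In wild-type Arabidopsis (Arabidopsis thaliana) seedlings moved from 22 °C to 4 °C, 44 of 32310 annotated loci (0.136%) were close to silent before the transfer and were expressed after 12 h in the cold. The members were chosen by their level in TPM, Salmon's length-adjusted share of a locus among all transcripts of a library, summed over all transcripts of the locus. A member had a mean under 0.5 TPM in the 22 °C libraries, a mean of at least 5 TPM in the 12 h libraries, and at least 2 TPM in every 12 h library. The 22 °C and 12 h libraries therefore chose the members, and the rise between those groups is described here without a test. The 3 h libraries took no part in the choice, so the level at 3 h is the main value the choice did not fix.

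Whole Col-0 seedlings without a transgene or mutation were sequenced in 3 groups: seedlings kept at 22 °C (0 h), seedlings after 3 h at 4 °C, and seedlings after 12 h at 4 °C, with 3 libraries in each group. The labels give an age of 10 days, whereas their treatment text gives 12 days, and the study's methods describe each biological replicate as a pool of seedlings from separate plates. Each library held 15910839 to 24291683 reads assigned to transcripts. The cold groups also had dimmer light and were harvested at a later time of day than the 22 °C group, so cold, light, and time of day cannot be told apart in these data. In such bulk tissue, a lower level in every cell and fewer expressing cells cannot be told apart either. Of the marker lists for cell types, the 5 root markers summed to 2890 to 3772 TPM at 22 °C, 3273 to 4149 TPM at 3 h, and 2949 to 3339 TPM at 12 h, and the 3 leaf markers to 24186 to 25183, 20201 to 22238, and 18472 to 20918 TPM in the same order. The 4 pollen markers summed to at most 1.1 TPM and the 6 seed markers to at most 8.6 TPM in any library, and no marker of any list was a member. The root sum was mostly BGLU23, with means of 3358, 3481, and 3078 TPM in order of time. By the test described below, the root marker AT5G47450 was called lower at 12 h than at 3 h. The root marker EXP7 was called higher at 12 h than at 22 °C. The 4 phloem markers summed to 213 to 242, 215 to 231, and 254 to 274 TPM in order of time. SUC2 (phloem) and MYB60 (guard cell) were called higher and HT1 (guard cell) lower at 12 h than at 3 h. No leaf marker was called at any step. The part of these marker levels in the results was not tested.

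Plants sense falling temperature within minutes to hours and first induce a small group of transcription factors, of which the CBF (C-repeat binding factor) proteins are the best known. CBF proteins bind the DRE, a short promoter element with the core CCGAC, in the promoters of the later cold-regulated genes. The circadian clock gates the response: genes peaking near dusk often carry the evening element AAAATATCT, which the morning factors CCA1 and LHY bind and repress. In addition, abscisic acid acts through the ABRE (core ACGTG), and heat shock factors act through the heat shock element.

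The members ranged from barely expressed to among the strong transcripts of cold-treated seedlings. Their median mean level was 0.161 TPM at 22 °C, 1.66 TPM at 3 h, and 10.3 TPM at 12 h. At 12 h, 5 members reached at least 100 TPM, 10 lay between 20 and 100 TPM, 9 between 10 and 20 TPM, and 20 below 10 TPM. Summed over all members, the libraries held 6.8 to 10.6 TPM at 22 °C, 697 to 754 TPM at 3 h, and 2138 to 2242 TPM at 12 h. COR27 and AT4G33980 (COR28) alone carried 48.8% of the 12 h sum, and the 5 highest members carried 70.3%. At 22 °C, 13 members had no read in any library, and the members had a median of 5.55 reads over the 3 libraries together. For a member without reads at 22 °C, a fold change is given as a lower bound, computed as if the 22 °C group had 3 reads in all. Such bounds and the counting intervals below cover counting error only.

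**Figure D1:**
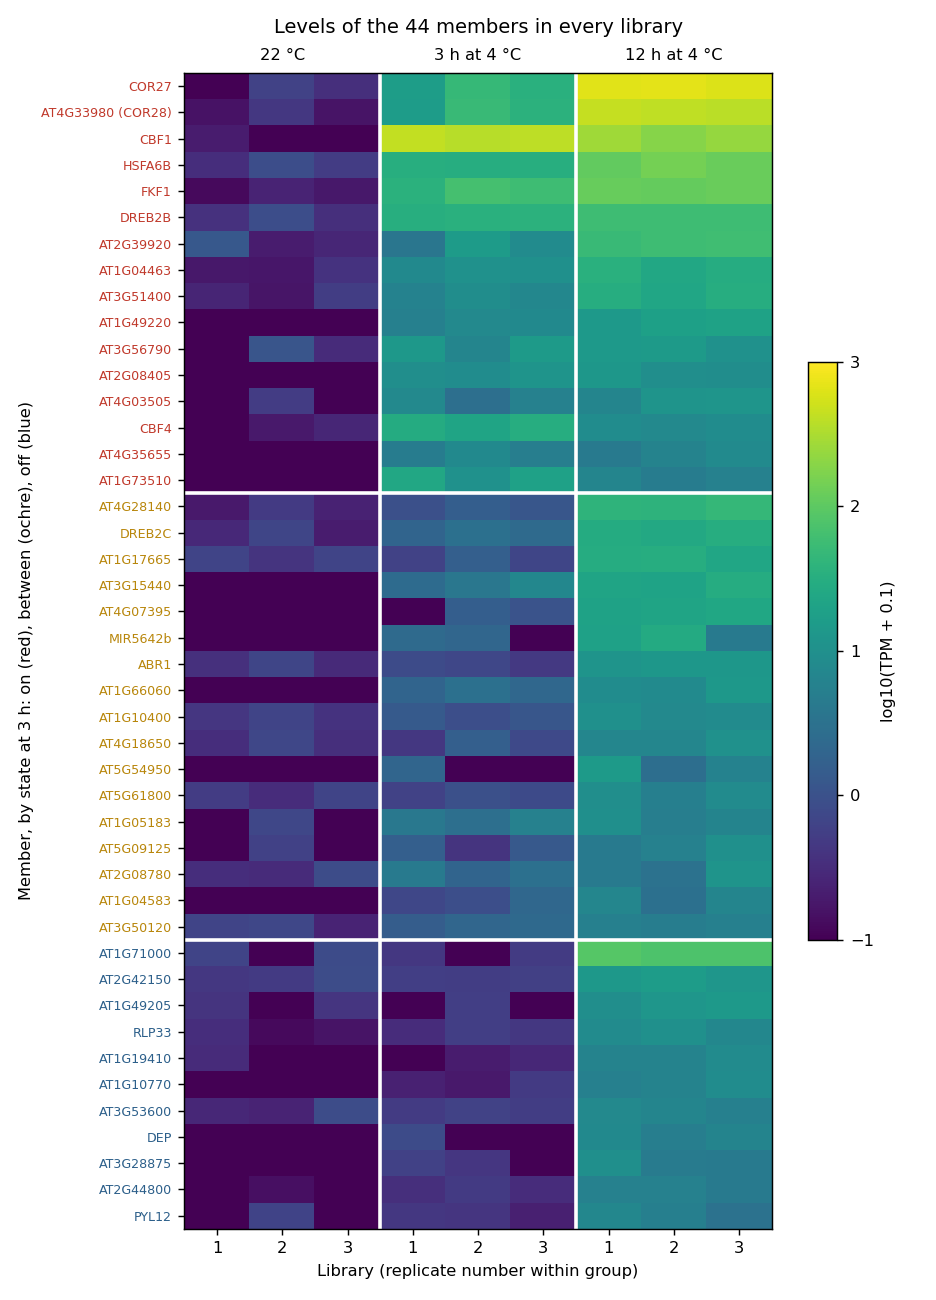
Levels of the 44 members (rows) in the 9 libraries (columns) as log10(TPM + 0.1), grouped by their state at 3 h and ordered by the 12 h mean within each state. The 16 members on at 3 h (top block) are bright in the 3 h and 12 h columns, and the 11 members off at 3 h (bottom block) are bright in the 12 h columns only.

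At 3 h, 16 members (36.4%) were already on, here meaning a mean of at least 5 TPM and at least 2 TPM in every 3 h library. A further 11 members (25%) were still off, with a mean under 0.5 TPM, and 17 (38.6%) lay between. Among the 11489 loci silent at 22 °C, only 19 (0.165%) were on at 3 h, and the 3 that were not members were DDF1, RRTF1, and AT2G08915. The median 12 h level was 29.0 TPM for the members on at 3 h, 8.68 TPM for those between, and 6.77 TPM for those off. In the median member, the 3 h level was 11.3% of the 12 h level, and 23 members had reached at least 10% of it.

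Of the 44 members, 42 passed the filter on low counts. With edgeR's quasi-likelihood test, 27 of these 42 were called higher at 3 h than at 22 °C (Benjamini-Hochberg adjusted p under 0.05, with a log2 change of at least 0.5 in either direction) and none was called lower, against 7.05% of all 20460 genes tested that were called higher. The members were selected on low 22 °C values, and only 26 would pass the filter on the 22 °C and 3 h libraries alone, so this count is a description and not an independent sign of induction. The same holds for 12 h against 3 h, since the 12 h libraries also chose the members, and for counts by state, which the 3 h level set. It also holds for the adjusted p-values of single members given below, since these reuse values that chose the members. All 16 members on at 3 h were called higher, as were 9 of the 15 tested members in between and 2 of the 11 members off at 3 h. Every 3 h library lay above every 22 °C library for 27 members, a pattern seen in 13.8% of all tested genes. In the comparison of 12 h with 3 h, 34 of the 42 members were called higher, against 11.0% of all genes, and 3 were called lower, against 14.8% of all genes. All 12 h libraries lay above all 3 h libraries for 35 members (14.3% of all genes), and below them for 3 members (37.8% of all genes).

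**Figure D2:**
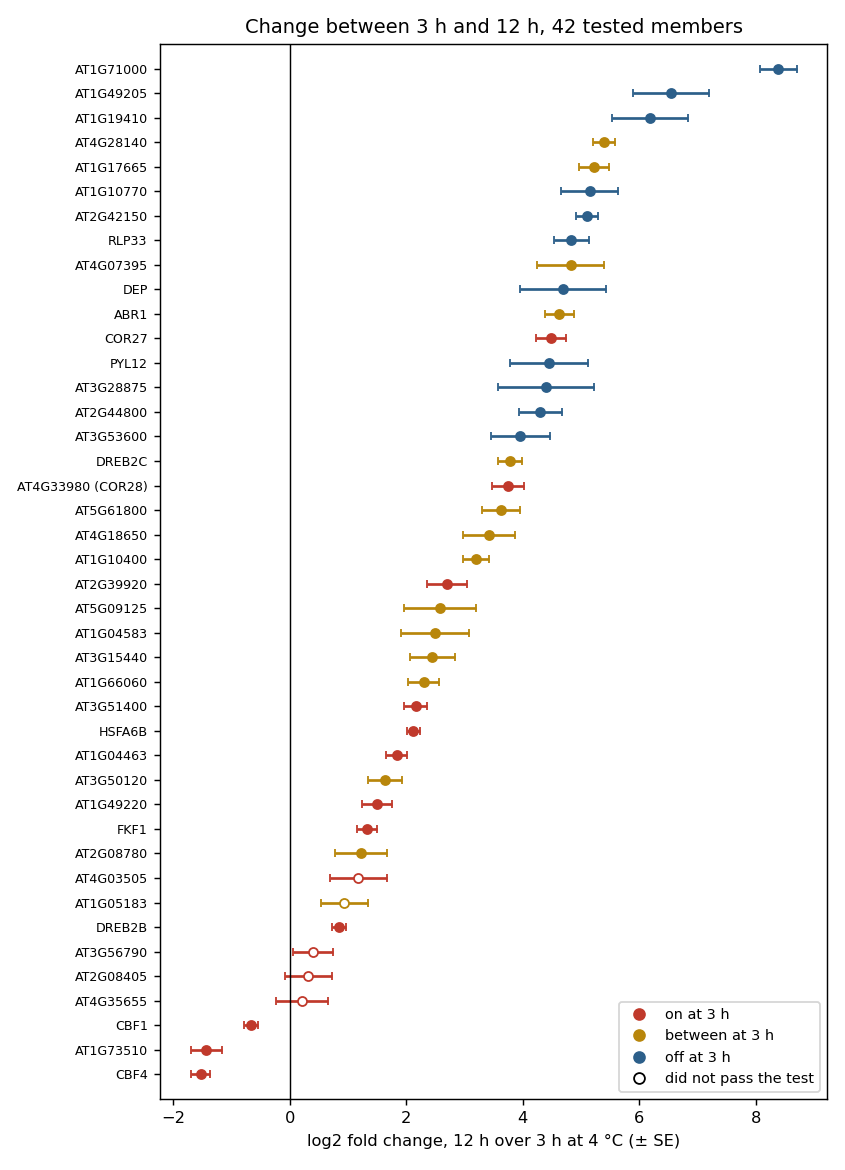
Fitted log2 fold change of 12 h over 3 h with its SE for the 42 tested members (1 row each), coloured by state at 3 h; open points did not pass the test. CBF1, AT1G73510, and CBF4 lie left of 0. The 11 members off at 3 h, for which the definition sets a rise, lie between 3.96 and 8.39.

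The 2 highest members at 12 h, COR27 and AT4G33980, belong to the evening arm of the clock. COR27, which encodes a small clock-associated protein that restrains cold-responsive transcription, had 0, 0.51, and 0.25 TPM at 22 °C, 17, 47.3, and 34.6 TPM at 3 h, and 653, 694, and 615 TPM at 12 h. Its homolog AT4G33980, known as COR28, had 0.06, 0.35, and 0.06 TPM at 22 °C, 16, 51.9, and 36.7 TPM at 3 h, and 439, 407, and 382 TPM at 12 h. Both proteins share 29.7% of residues over the shorter protein. The groups of either gene did not overlap at any step, and only 5.0% of the 12 h level of COR27 and 8.5% of that of AT4G33980 was present at 3 h. The fitted rise was 4.48 ± 0.26 (log2, SE) for COR27 at 12 h over 3 h (edgeR adjusted p = 1.65e-09) and 3.75 ± 0.28 for AT4G33980 (edgeR adjusted p = 3.24e-08).

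FKF1, a blue-light receptor F-box protein of photoperiodic flowering, was further ahead at 3 h. It had 0.03, 0.15, and 0.08 TPM at 22 °C, 35.2, 65.1, and 57.7 TPM at 3 h, and 117, 112, and 123 TPM at 12 h, so that 44.9% of its 12 h level was already present at 3 h. Its change was 9.23 ± 0.34 at 3 h over 22 °C (edgeR adjusted p = 1.94e-11) and 1.32 ± 0.17 at 12 h over 3 h (edgeR adjusted p = 1.37e-05). With 11 reads at 22 °C in all, the change of FKF1 at 3 h over 22 °C was 9.98 without 22 °C replicate 2.

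The 3 h libraries differed from each other in these genes in a shared way. Replicate 1 was the lowest 3 h library for COR27, AT4G33980, and FKF1, and also for AT2G39920, which codes for an HAD-family acid phosphatase and had 3.61, 15.6, and 8.54 TPM at 3 h. Of the 9 listed clock genes called higher at 3 h, these 3 members included, replicate 1 was lowest in 8, including PRR5 with 85.5, 165, and 137 TPM and TOC1 with 31.7, 51.4, and 49.6 TPM. CBF1 to CBF4 had their lowest 3 h level in replicate 2 instead. Over all members on at 3 h, replicate 1 was lowest in 9, replicate 2 in 7, and replicate 3 in none. This comparison between libraries was chosen after the values were seen, and its cause was not tested.

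**Figure D3:**
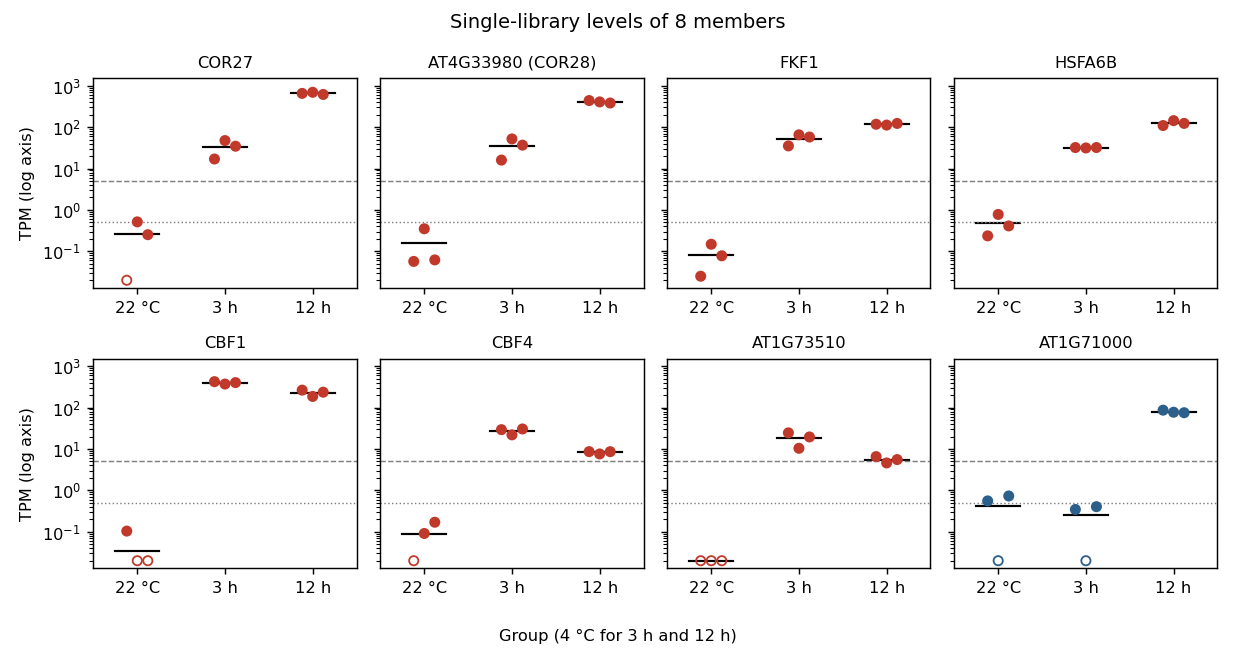
TPM (log axis) of 8 members in each library (points) with the group mean (bar); libraries at 0 TPM are drawn as open points at 0.02, and the lines mark 0.5 TPM (dotted) and 5 TPM (dashed). COR27, AT4G33980, FKF1, and HSFA6B rise at both steps, CBF1, CBF4, and AT1G73510 are lower at 12 h than at 3 h, and AT1G71000 is on only at 12 h.

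Only 3 members were lower at 12 h than at 3 h. CBF1, an AP2/ERF factor that activates cold-regulated genes, had 0.10, 0, and 0 TPM at 22 °C, 423, 371, and 402 TPM at 3 h, and 264, 186, and 236 TPM at 12 h. From 2 reads at 22 °C and 26113 reads at 3 h, the ratio of 3 h to 22 °C was 11900 after scaling to library size (95% counting interval 3280 to 98000). CBF1 fell by 0.67 ± 0.12 on the log2 scale at 12 h relative to 3 h (edgeR adjusted p = 0.000447). CBF4, a CBF protein known for its drought and abscisic acid response, had 0, 0.09, and 0.17 TPM at 22 °C, 29.3, 21.9, and 30.5 TPM at 3 h, and 8.63, 7.59, and 8.61 TPM at 12 h. It fell by 1.53 ± 0.16 at 12 h relative to 3 h (edgeR adjusted p = 1.37e-06). The CBF1 and CBF4 proteins share 69.5% of residues over the shorter protein, the closest pair among the members. AT1G73510, an uncharacterized single-exon gene, had no read at 22 °C, 24.6, 10.4, and 19.5 TPM at 3 h, and 6.55, 4.61, and 5.55 TPM at 12 h. It was at least 310-fold higher at 3 h than at 22 °C and fell by 1.43 ± 0.27 at 12 h relative to 3 h (edgeR adjusted p = 0.000714). For all 3 genes, the 12 h libraries lay below the 3 h libraries without overlap.

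The CBF1 neighbors CBF2 and CBF3 did not qualify because they were expressed at 22 °C, with means of 3.88 and 1.02 TPM, and DDF1 did not because its 12 h mean was 3.37 TPM. Of the 6 listed CBF/DREB1 genes, 5 were tested, and these 5 were all called higher at 3 h than at 22 °C and all called lower at 12 h than at 3 h.

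The 6 members CBF1, CBF4, DREB2B, DREB2C, AT4G28140, and ABR1 encode AP2/ERF transcription factors, and they switched on at different times. DREB2B, a factor of drought and heat responses, had 32.5, 34.6, and 37.5 TPM at 3 h and 57.9, 56.2, and 56.6 TPM at 12 h after a mean of 0.44 TPM at 22 °C. DREB2C, its relative with 37.0% shared residues, had a mean of 0.29 TPM at 22 °C, 2.37 ± 0.53 TPM at 3 h, and 28.8 ± 2.44 TPM at 12 h (SD, n = 3). The ERF gene AT4G28140 had 0.86, 1.47, and 1.07 TPM at 3 h and 39.7, 38.3, and 46.8 TPM at 12 h, a rise of 5.39 ± 0.19 at 12 h over 3 h (edgeR adjusted p = 5.02e-12). ABR1, a repressor of abscisic acid responses, did not pass the test at 3 h, with 0.71, 0.61, and 0.36 TPM against 0.26, 0.58, and 0.20 TPM at 22 °C. At 12 h, ABR1 had 11.8, 13.1, and 13.2 TPM (4.63 ± 0.25 over 3 h, edgeR adjusted p = 5.68e-10). The ABR1 call at 3 h was gained without 22 °C replicate 2.

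HSFA6B, a class A heat shock transcription factor, had 0.24, 0.78, and 0.41 TPM at 22 °C, 32.1, 31.4, and 32.1 TPM at 3 h, and 109, 143, and 123 TPM at 12 h. It was close to the upper limit at 22 °C, and its 3 h libraries agreed more closely (SD 0.41 TPM) than those of any clock gene named above. AT1G71000, which encodes a DnaJ-domain chaperone, was the strongest of the members off at 3 h. It had 0.56, 0, and 0.73 TPM at 22 °C, 0.35, 0, and 0.40 TPM at 3 h, and 86.7, 77.3, and 75.2 TPM at 12 h, so its 3 h libraries overlapped those at 22 °C. Its rise of 8.39 ± 0.32 at 12 h over 3 h (edgeR adjusted p = 1.18e-11) was the largest fitted change at this step among the 42 tested members, although AT1G49205, with 3 reads at 3 h, had 9.59 without 3 h replicate 2.

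The other members on at 3 h were AT2G39920, AT1G04463, AT3G51400, AT1G49220, AT3G56790, AT2G08405, AT4G03505, and AT4G35655. AT3G51400, a DUF241 gene, had 5.90, 9.02, and 7.01 TPM at 3 h and 30.8, 23.0, and 30.8 TPM at 12 h. AT1G49220, a RING/U-box gene without a read at 22 °C, was at least 46.1-fold higher at 3 h than at 22 °C, with 5.39, 7.62, and 7.71 TPM, and reached 13.8, 18.8, and 20.1 TPM at 12 h. For 4 of the 16, the change at 12 h over 3 h did not pass the test: AT3G56790 (0.40 ± 0.35), AT2G08405 (0.32 ± 0.40), AT4G35655 (0.21 ± 0.44), and AT4G03505 (1.18 ± 0.49, edgeR adjusted p = 0.0697). AT3G56790, annotated as similar to an RNA splicing factor, had 13.5, 6.43, and 14.8 TPM at 3 h and 14.5, 14.8, and 10.4 TPM at 12 h. AT4G35655, of the RIN4 family of immune regulators, had 4.63, 7.92, and 5.04 TPM at 3 h and 4.16, 6.16, and 8.02 TPM at 12 h, and these groups overlapped. AT4G03505 was called higher at 12 h once 12 h replicate 1 was left out.

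The 11 members off at 3 h were all protein-coding and included no long noncoding RNA. After AT1G71000, the highest at 12 h were AT2G42150, a bromodomain gene with 13.6, 15.9, and 12.7 TPM at 12 h, and AT1G49205, with 9.38, 12.6, and 14.6 TPM at 12 h. RLP33 (a receptor-like protein), AT1G19410 (an FBD/leucine-rich repeat protein), AT1G10770 (a putative invertase or pectin methylesterase inhibitor), AT3G53600 (a C2H2 zinc finger protein), and DEP (a RING/U-box protein) had 12 h means of 8.55, 6.88, 6.77, 6.46, and 6.38 TPM. AT3G28875, AT2G44800 (a 2-oxoglutarate-dependent oxygenase), and PYL12 (of the abscisic acid receptor family) closed the group with 6.11, 5.15, and 5.13 TPM. At 3 h, these 11 members had mean levels of 0.092 to 0.456 TPM. All 11 were called higher at 12 h than at 3 h, by 3.96 to 8.39 on the log2 scale. Their definition set this rise, with a mean under 0.5 TPM at 3 h and of at least 5 TPM at 12 h. These calls are therefore a description only. Values resting on few 3 h reads moved when a 3 h library was left out, to 9.59 for AT1G49205 without replicate 2 and 8.31 for DEP without replicate 1. RLP33 was called higher at 3 h than at 22 °C (0.23, 0.45, and 0.35 TPM against 0.24, 0.03, and 0.06 TPM; 1.70 ± 0.55, edgeR adjusted p = 0.0453), but the call was lost without 22 °C replicate 2 or 3, 3 h replicate 2 or 3, or 12 h replicate 1 or 3. Without 22 °C replicate 1, the RLP33 change was 2.95. AT2G44800 was called as well, from 18 reads at 3 h and 1 read at 22 °C, a ratio of 16.4 (95% counting interval 2.58 to 682). RLP33 and AT2G44800 passed the filter on low counts only through their 12 h libraries, which also chose the members. Their calls at 3 h are therefore a description and no independent sign of induction.

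The 17 members between the limits at 3 h had mean levels of 0.557 to 4.40 TPM there. AT3G15440, a RING/U-box gene, had no read at 22 °C, 2.43, 3.81, and 6.97 TPM at 3 h, and 21.6, 20.9, and 29.9 TPM at 12 h. AT1G66060, a DUF577 gene also without a read at 22 °C, was at least 43.6-fold higher at 3 h than at 22 °C, with 1.85, 2.94, and 2.06 TPM. AT1G17665 had 0.52, 1.5, and 0.59 TPM at 3 h against 0.56, 0.30, and 0.55 TPM at 22 °C, which overlapped, and 29.6, 31.3, and 23.0 TPM at 12 h. The UDP-glycosyltransferase gene AT1G10400, the transcription factor-like gene AT4G18650, the pentatricopeptide repeat gene AT5G61800, and the DUF247 gene AT3G50120 had 12 h means of 8.68, 7.95, 7.67, and 5.22 TPM. AT5G54950, annotated as an aconitase family gene, rested on few reads, with 15.2, 2.71, and 5.84 TPM at 12 h from 21 reads in all, and did not pass the filter.

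The members that do not code for a protein were 7 long noncoding RNAs and the miRNA locus MIR5642b. None of the 7 long noncoding RNAs was off at 3 h, 2 were on, and 5 lay between. AT1G04463 was the highest, with 0.08, 0.07, and 0.28 TPM at 22 °C, 7.70, 10.5, and 10.0 TPM at 3 h, and 34.2, 25.3, and 30.1 TPM at 12 h. It lies entirely antisense to AT1G06450, which had a mean of 3.16 TPM at 22 °C, 2.90 TPM at 3 h, and 2.64 TPM at 12 h and was not called at either step. AT4G07395 lies on chromosome 4 (positions 13020018 to 13020604, plus strand) between CBF3 and CBF1, 617 bases from CBF3 and 1175 bases from CBF1, on the strand opposite to both. It had no read at 22 °C, 0, 1.47, and 0.96 TPM at 3 h, when CBF1 was at its highest, and 20, 21.6, and 24.3 TPM at 12 h (4.82 ± 0.57 at 12 h over 3 h, edgeR adjusted p = 1.26e-05). This change was 4.15 without 3 h replicate 1 and 5.49 without 3 h replicate 2. Its 9 reads at 3 h did not pass the test against 22 °C (edgeR adjusted p = 0.0731), and they did without 3 h replicate 1. AT2G08405 had 9.28, 8.64, and 11.7 TPM at 3 h and 13, 9.23, and 9.02 TPM at 12 h, with overlapping groups. It lies entirely antisense to AT2G30615, which had means of 0.50, 1.79, and 1.02 TPM in the 3 groups. AT2G30615 was called higher at 3 h than at 22 °C (1.92 ± 0.44, edgeR adjusted p = 0.00628). AT2G08780 is antisense over its whole length to AT2G36220, whose mean level was 18.0 TPM at 22 °C, 107 TPM at 3 h, and 165 TPM at 12 h, and AT2G08780 had 4.17, 1.84, and 2.86 TPM at 3 h and 4.23, 3.17, and 11.6 TPM at 12 h. Its call at 12 h over 3 h was lost without 12 h replicate 3 or 3 h replicate 2 or 3. AT1G05183 (antisense to ATPC2), AT5G09125, and AT1G04583 (antisense to AT1G07473) had 12 h means of 7.04, 6.65, and 5.34 TPM. The AT1G05183 call at 12 h over 3 h was gained without 12 h replicate 2 or 22 °C replicate 1 or 2, and the AT1G04583 call at 3 h was lost without 3 h replicate 3. AT1G04583 passed the filter on low counts only through its 12 h libraries. The libraries were strand-specific, but the sources used here do not state whether the counting used the strand, so the values of antisense pairs are uncertain. MIR5642b had 19.5, 27.8, and 4.36 TPM at 12 h, shares 99.1% of its 31-base words with other loci, and did not pass the filter, so its level is uncertain.

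Sequence features were compared as a property that the choice did not use. The window ran from 250 bases before to 50 bases after each annotated gene start on the TAIR10.1 assembly, and a match on either strand counted. The evening element was found in 9 of 44 member promoters (20.5%), against 2.66% of the 32070 promoters of all loci, and with 1000 bases before the start in 31.8% against 7.34%. It was present in 5 of the 16 members on at 3 h, 1 of the 17 between, and 3 of the 11 off. Its carriers included AT4G33980, HSFA6B, FKF1, CBF4, AT3G15440, AT1G71000, AT1G19410, and AT2G44800, of which FKF1, AT1G71000, and AT3G15440 had 2 matches each. The matches of AT4G33980 and HSFA6B began at bases 32 and 34 of the annotated gene, and 1 match of FKF1 at base 1. These matches are therefore not upstream of the start. The DRE core CCGAC was found in 14 member promoters (31.8%), against 14.8% of all promoters, and with 1000 bases in 52.3% against 39.2%. Its share was 1 of 16 (6.25%) in the members on at 3 h, 6 of 17 (35.3%) in those between, and 7 of 11 (63.6%) in those off at 3 h. With 1000 bases, these shares were 31.2%, 58.8%, and 72.7%. The only carrier among the members on at 3 h was AT3G56790, and no AP2/ERF member except ABR1 carried it. Exons of another gene enter the 250 bases before the start of the DRE core carriers AT3G56790, MIR5642b, AT1G05183, DEP, and AT1G04583. The same holds for the evening element carrier AT2G44800, so these windows are not promoter sequence alone.

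**Figure D4:**
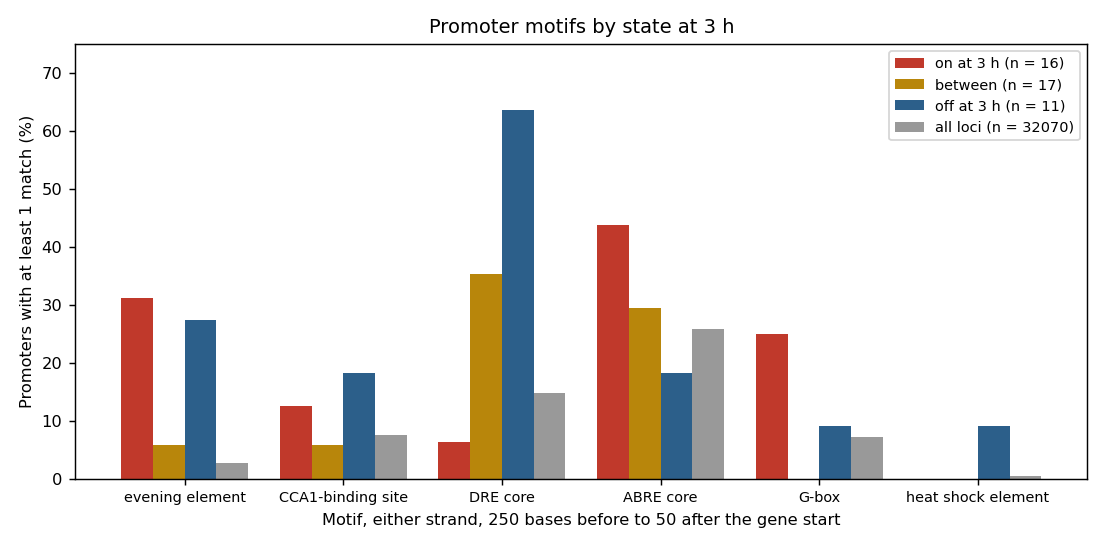
Share of promoters (%) with at least 1 match to each of 6 motifs for the members on, between, and off at 3 h and for all loci. The DRE core is present in 6.25% of members on at 3 h, 63.6% of those off at 3 h, and 14.8% of all loci, and the evening element reaches 31.2% in members on at 3 h and 27.3% in those off, with 2.66% in all loci.

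The ABRE core ACGTG was found in 31.8% of member promoters against 25.8% of all promoters, and the G-box CACGTG, which contains the ABRE core, in 11.4% against 7.13%. The G-box carriers were DREB2B, AT2G39920, AT3G51400, CBF4, and AT1G71000, 4 of them on at 3 h. The CCA1-binding site AAAAATCT was found in 11.4% against 7.53%, but with 1000 bases its share was lower in the members, at 18.2% against 21.6%. The heat shock element was found only in the promoter of AT1G71000, at 2 overlapping places, and in 0.505% of all promoters, and with 1000 bases in 4.55% of member promoters against 1.86%. With 44 promoters, a share moves by over 2 percentage points with each promoter, and these shares are descriptions without a test. A match is a run of letters, not a bound site.

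The upstream sequences of evening element carriers are shown for the clock member FKF1 and the strongest member off at 3 h, in windows that no exon of another gene enters. Each line gives 250 bases that end just before the gene start, read 5′ to 3′ on the gene's strand, with the evening element in either orientation in capitals. FKF1 (chr1:25508389-25508638, plus strand) has a match starting 186 bases before the start, and AT1G71000 (chr1:26770178-26770427, minus strand) has matches 176 and 103 bases before it.
FKF1: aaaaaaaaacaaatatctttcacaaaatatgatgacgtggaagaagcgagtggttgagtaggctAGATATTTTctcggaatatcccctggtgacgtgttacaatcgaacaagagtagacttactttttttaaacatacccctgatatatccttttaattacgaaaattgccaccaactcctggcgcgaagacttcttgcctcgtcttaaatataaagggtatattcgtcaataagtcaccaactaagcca
AT1G71000: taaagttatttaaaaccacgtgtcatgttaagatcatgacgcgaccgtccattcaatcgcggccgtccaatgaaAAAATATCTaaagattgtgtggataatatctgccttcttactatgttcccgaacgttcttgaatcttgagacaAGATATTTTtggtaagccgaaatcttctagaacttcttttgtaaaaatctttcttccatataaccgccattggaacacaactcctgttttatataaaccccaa

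The next set shows members that were off at 3 h and carry the DRE core, in capitals in either orientation, since this was the motif whose share differed most between members off and on at 3 h. AT2G42150 (chr2:17572055-17572304, plus strand) and AT3G53600 (chr3:19875125-19875374, plus strand) have 2 matches each, and RLP33 (chr3:1652150-1652399, minus strand) and PYL12 (chr5:18607112-18607361, minus strand) have 1 each upstream of the start.
AT2G42150: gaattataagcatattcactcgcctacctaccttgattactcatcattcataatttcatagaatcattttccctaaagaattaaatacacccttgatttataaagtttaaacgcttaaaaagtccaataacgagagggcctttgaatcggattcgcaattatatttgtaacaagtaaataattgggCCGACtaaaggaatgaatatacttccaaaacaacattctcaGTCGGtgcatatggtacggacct
AT3G53600: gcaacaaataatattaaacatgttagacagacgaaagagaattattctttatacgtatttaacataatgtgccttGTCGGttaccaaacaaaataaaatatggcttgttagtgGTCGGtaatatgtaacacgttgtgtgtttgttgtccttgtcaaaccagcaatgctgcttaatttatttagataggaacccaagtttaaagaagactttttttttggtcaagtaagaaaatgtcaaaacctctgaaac
RLP33: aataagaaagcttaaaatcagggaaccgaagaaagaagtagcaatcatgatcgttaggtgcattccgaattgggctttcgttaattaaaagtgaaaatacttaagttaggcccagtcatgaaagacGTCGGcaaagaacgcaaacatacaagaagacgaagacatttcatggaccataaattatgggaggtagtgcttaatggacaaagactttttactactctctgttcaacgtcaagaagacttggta
PYL12: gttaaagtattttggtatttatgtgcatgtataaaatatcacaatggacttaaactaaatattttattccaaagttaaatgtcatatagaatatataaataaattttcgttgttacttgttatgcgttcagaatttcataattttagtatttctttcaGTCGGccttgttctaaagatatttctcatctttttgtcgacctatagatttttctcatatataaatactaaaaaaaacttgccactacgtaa

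Of the 36 protein-coding members, 44.4% had a single exon in their longest transcript, against 31.9% of the other protein-coding loci silent at 22 °C and 18.9% of all protein-coding loci. The median length of the longest transcript was 1194 bases for the protein-coding members, against 943 bases for the other protein-coding silent loci and 1518 bases for all protein-coding loci. Long noncoding RNAs made up 15.9% of the members, 27.0% of the other silent loci, and 10.9% of all loci. Only 12 members carry a gene symbol in the reference. Only CBF1 with AT4G07395 and AT1G49220 with AT1G49205 lay within 10 kb of each other, and AT1G49220 and AT1G49205 are 5567 bases apart.

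A number of members lay directly downstream of another gene on the same strand or overlapped it. Of the 44 members, 19 (43.2%) had a gene on the same strand that ended within 1000 bases upstream or overlapped them, against 31.2% of the other loci silent at 22 °C. For 12 members (27.3%), this upstream gene was itself called higher at 12 h than at 22 °C, against 2.49% of the other silent loci, in a background of 15.5% of all tested genes called higher. These 12 comprised 3 of the 16 members on at 3 h, 8 of the 17 between, and 1 of the 11 off. Not every gene counted among the 19 was expressed. Those counted for AT5G09125 and AT3G28875 had means of 0 TPM in all 3 groups. AT1G10400 overlaps the end of AT1G10410 by 45 bases, and AT1G10410 had means of 31 TPM at 22 °C, 33.1 TPM at 3 h, and 200 TPM at 12 h, while AT1G10400 had 0.40, 1.05, and 8.68 TPM. AT5G61800 overlaps APC1, which encodes an ATP/phosphate carrier, by 42 bases, and APC1 had 11.4, 17.8, and 93.8 TPM while AT5G61800 had 0.40, 0.68, and 7.67 TPM. AT4G03505 shares 42.3% of its 31-base words with RMA1, an E3 ligase gene that had 15.3, 50.9, and 67.2 TPM, and its own level is uncertain for that reason. AT5G54950 lies 220 bases downstream of the pyruvate decarboxylase gene PDC2, which had 7.96, 18.0, and 144 TPM. AVP1, which encodes the vacuolar proton pump, overlaps AT1G05183 by 181 bases on the same strand. AVP1 had 306 TPM at 22 °C and 473 TPM at 12 h, while AT1G05183 had 0.20 and 7.04 TPM. AT1G73510 lies 313 bases downstream of AT1G73530, which had 51.6, 58.6, and 46.2 TPM. AT3G56790 lies 78 bases downstream of CAM3, which had 285, 347, and 326 TPM. Neither AT1G73530 nor CAM3 was called at 12 h against 22 °C. COR27, AT4G33980, CBF1, HSFA6B, FKF1, and AT1G71000 had no same-strand gene that overlapped them or ended within 1000 bases upstream. The part of transcription from the upstream gene in the level of these members was not tested.

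**Figure D5:**
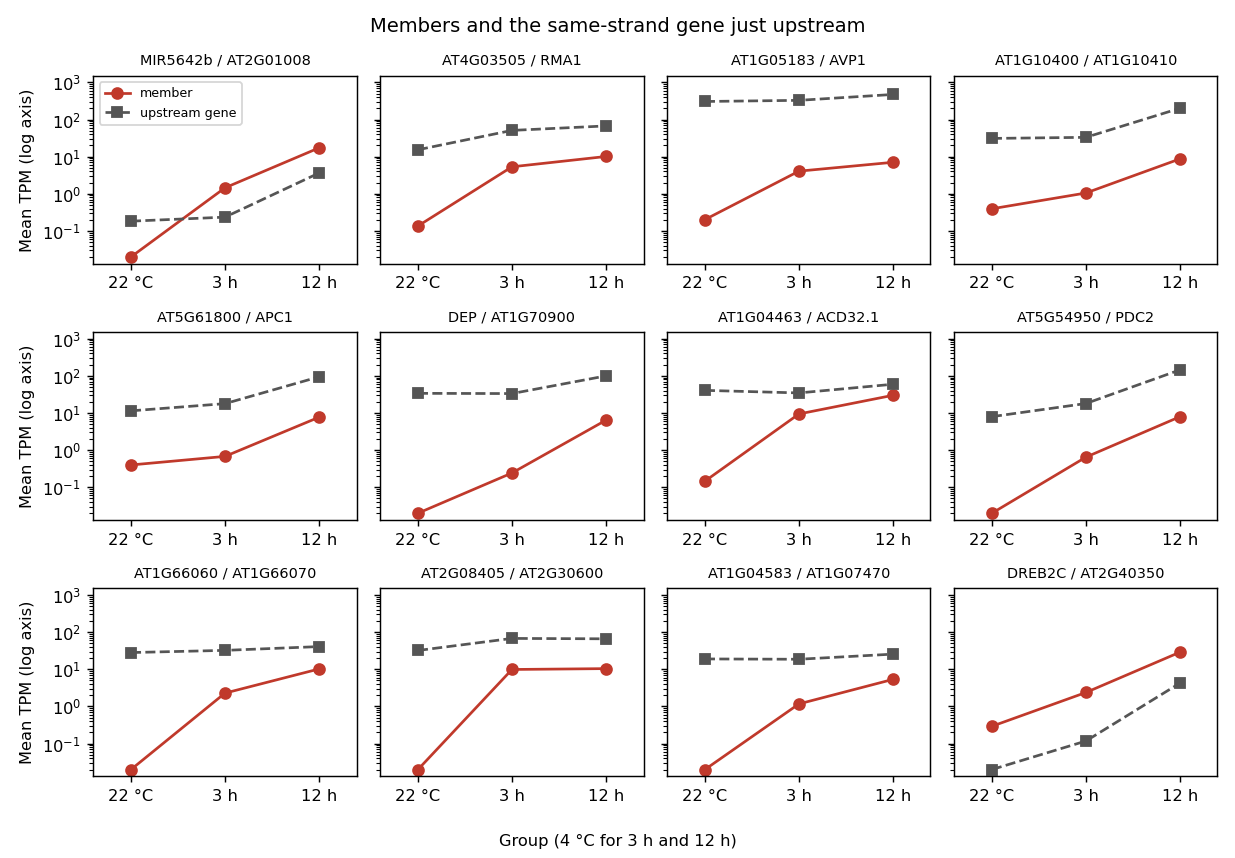
Mean TPM (log axis, means of 0 drawn at 0.02) in the 3 groups for 12 members (circles) and the same-strand gene within 1000 bases upstream (squares), where the upstream gene was called higher at 12 h than at 22 °C. Upstream genes such as AVP1 were abundant at 22 °C when the member was near 0, and PDC2, AT1G10410, and APC1 rose by 3.13, 2.73, and 2.55 on the log2 scale at 12 h over 3 h.

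Reads of near-identical loci can be split by the counting. No 31-base word was shared with another locus for 28 of the 44, and over 10% was shared for 5: MIR5642b, AT4G03505, AT1G66060, AT1G49220, and AT1G05183. Words were compared in the sense orientation of each transcript only, so an overlap with a gene on the opposite strand was not counted as shared. CBF1 shared 6.91% of its words with 2 other loci, mainly CBF2. On the opposite strand, 14 members overlapped another gene, 9 of them over at least 50% of their length. DREB2B overlapped TBL32 over 54.6% of its length, and TBL32 had means of 7.93, 7.86, and 5.84 TPM in the 3 groups.

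The gene lists held 7 members in all. In the list of 24 clock genes, COR27, AT4G33980, and FKF1 were members. Of these 24, 9 were called higher and none lower at 3 h than at 22 °C, with a median log2 change of 0.41 (-0.005 over all genes), and 16 were called higher and 1 lower at 12 h than at 3 h, with a median of 1.21 (-0.026 over all genes). Several evening genes were expressed at 22 °C and were therefore no members, such as PRR5 with means of 1.36, 129, and 289 TPM and ELF4 with means of 6.5, 105, and 325 TPM in the 3 groups in order of time. The CBF/DREB1 list gave CBF1 and CBF4. In the list of 23 stress ERF, DREB2, and C2H2 zinc finger factors, DREB2B and DREB2C were members, and 15 of 22 tested genes were called higher at 3 h than at 22 °C, with a median of 1.62, while 10 were called higher and 7 lower at 12 h than at 3 h. The lists of dehydrin, LEA, and COR genes (24 genes), galactinol and raffinose synthesis (10 genes), flavonoids and anthocyanins (19 genes), abscisic acid (23 genes), and starch and sugar (17 genes) contained no member, and PYL12 was not on the abscisic acid list. Of the tested genes in these lists, 12 of 24, 2 of 7, 1 of 19, 7 of 20, and 3 of 17 were called higher and 0, 0, 6, 2, and 0 were called lower at 3 h than at 22 °C, in the order given. At 12 h relative to 3 h, 16, 6, 1, 10, and 3 were called higher and 1, 0, 9, 1, and 4 lower.

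Near the limits of the rule, AT2G42150 and AT2G39920 were just inside at 22 °C, with 0.493 and 0.478 TPM. AT5G57510 and the clock gene PRR3 were just outside, with 0.506 and 0.514 TPM, and PRR3 reached 11.2 TPM at 12 h. PYL12 and AT2G44800 were just inside at 12 h, with 5.13 and 5.15 TPM. VIN3, a regulator of vernalization, and AT2G40350, a neighbor of DREB2C, were just outside, with 4.25 and 4.23 TPM. For the minimum in each 12 h library, AT5G54950 and AT1G04583 were just inside with a lowest library of 2.71 and 2.95 TPM, and AT2G08915 and MIR396a were outside because they were listed at 0 in a 12 h library.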

How the data were processed

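RNA-seq of the 9 libraries was analysed. The authors removed rRNA reads with SortMeRNA, trimmed adapters with Trimmomatic, checked reads with FastQC, and assigned them to ARAPORT11 transcripts with Salmon; its options are not given in the sources used here. The authors deposited, per transcript, the estimated counts of Salmon and its TPM values, in which counts are divided by effective length and scaled within the library.

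TPM and estimated counts were summed per locus. Counts were rounded, filtered with filterByExpr, scaled with TMM, and tested with edgeR 4.0.16 (quasi-likelihood F test, 1 model over 9 libraries, R 4.3.3), with Benjamini-Hochberg adjustment over 20460 genes. The SE of a log2 fold change was taken as its size divided by the root of the F statistic. DESeq2 1.42.0 and other settings were alternatives. Transcript lengths in the TAIR10.1 annotation equalled those in the files for all 53045 of 53467 transcripts that it holds. Replicates differed by more than sampling noise (chi-square per degree of freedom 3.43 to 13.5).

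The members and gene lists were chosen with earlier results of these data known. Named were the 10 highest members at 12 h, the 10 highest on at 3 h, the 8 highest off at 3 h, members in a list, loci next to a limit, members called lower at 12 h than at 3 h, members within 10 kb or with at least 60% protein identity, and the 5 highest noncoding members. Other members were added after their values were seen. Some promoter sequences are not reported here.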

Additional observations from a re-analysis of the deposited data

How the results depend on the processing

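The number of members depended on the limits: 28 with a 22 °C mean under 0.25 TPM, 83 under 1 TPM, and 24 with a 12 h mean of at least 10 TPM, against 44. Leaving out a 22 °C or 12 h library gave 41 to 49, of which 39 to 43 were among the 44. With normalized CPM in place of TPM at the same limits, the rule gave 35 loci, and only 23 of these were among the 44. With a limit of 10 TPM at 3 h, 9 members were on, as with normalized CPM in place of TPM, against 16, and leaving out a 3 h library gave 15 to 16. Members called higher at 3 h than at 22 °C numbered 25 to 28 and members called higher at 12 h than at 3 h 34 to 36 with 1 library left out. When only the 22 °C and 3 h libraries were filtered and fitted, 26 members were tested and 22 were called higher at 3 h. With a minimum log2 change of 1, all genes called numbered 769 higher at 3 h than at 22 °C, 1150 higher at 12 h than at 3 h, and 1198 lower, and without a fold minimum 3867 were higher at 12 h than at 3 h. With 1000 bases before the start, chosen after seeing the data, the share in members over that in all promoters was 4.33 for the evening element, 0.843 for the CCA1-binding site, 1.33 for the DRE core, and 2.45 for the heat shock element, against 7.71, 1.51, 2.15, and 4.50 with 250 bases. The cause of these shifts was not tested. Upper quartile scaling moved the median of all genes at 12 h over 3 h to -0.105. Of the single-gene results, 10 values at 3 h against 22 °C and 7 at 12 h against 3 h lost their call under an alternative, and no called value changed sign. Members that an alternative left untested are not among these values.

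Same-numbered libraries were not paired by the labels, and their residuals correlated at -0.376 to 0.229. With the replicate block, 26 members were called higher at 3 h than at 22 °C, 34 higher and 3 lower at 12 h than at 3 h, and of all genes 1393, 2199, and 2921; RLP33 was no longer called at 3 h.

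Members with few reads limit the precision: 2 had a 12 h library under 10 reads, and 13 had none at 22 °C.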
